A study of Mus musculus with 40 samples.

Results

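CT26 tumors of mice that received anti-TGF-β together with anti-PD-1 were compared with CT26 tumors of mice that received anti-PD-1 alone, across all genes. The tumors were chosen by their treatment label, which gave 5 mice on the combination (anti-TGF-β with anti-PD-1 FcS) and 5 on anti-PD-1 FcS, 10 of the 40 mice in the series. CT26 is a colon carcinoma line of BALB/c mice. Syngeneic BALB/c mice of 6 to 12 weeks received 1000000 cells s.c., mAbs were given i.p. on days 6, 9 and 12, and tumor RNA was taken on day 13. Both groups carried anti-PD-1 in an Fc-silent format (FcS), and the added anti-TGF-β mAb was clone 1D11, which neutralizes all isoforms of the cytokine. The other groups used below are the isotype control (motavizumab), anti-TGF-β alone, and anti-PD-1 FcS with anti-GARP:TGF-β1 (clone 58A2) as WT or FcD mIgG2a, each of 5 mice. Each mouse is named here by its library number.

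TGF-β is made in a latent form and is held by carriers such as GARP on regulatory T cells, from which integrins release the active cytokine. The active cytokine binds the receptors Tgfbr1 and Tgfbr2, which phosphorylate Smad proteins, and these induce matrix genes together with their own inhibitors Smad7 and Skil. In tumors the pathway restrains cytotoxic T cells and drives fibroblasts. Interferons act through STAT proteins and induce antiviral genes and the machinery that loads peptides on MHC class I, and PD-1 is an inhibitory receptor on activated T cells.

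Total counts per mouse ran from 12156621 to 15654917 among the 10 mice. Levels are given as CPM, the count of a gene scaled to library size after TMM scaling, and tests are edgeR's quasi-likelihood test in a model of all 40 mice with Benjamini-Hochberg adjustment over the 14760 genes that passed a filter on low counts. The labels do not give the sex of the mice, but Xist was between 62.7 and 151 CPM in the 5 mice with library numbers from 61, and at most 0.428 CPM in the 5 mice up to number 60, in which Ddx3y was between 8.38 and 24.2 CPM. The combination group held 2 mice of the earlier and 3 of the later numbers, and the anti-PD-1 group 3 and 2, so differences within each set of libraries are given for Isg15, Fn1 and the main gene lists. The epithelial markers Krt20 and Cdx2 were detected in all 10 tumors, at 60.6 to 158 CPM and 3.46 to 5.85 CPM, while Epcam ran from 0 to 11 CPM.

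A few tumors stood apart from the rest of their group, as shown by the mean levels of gene lists in each mouse. Mouse 53 of the combination group had the lowest median correlation with its own group (0.958, against 0.979 to 0.982 in 7 of the 10 mice). Mouse 47 of the anti-PD-1 group (0.962) had the lowest levels of interferon-stimulated, cytotoxic and NK cell genes and high levels of adipocyte genes. Mouse 52 of the anti-PD-1 group (0.971) had the highest T cell and cytotoxic genes of its group together with skeletal muscle genes. In bulk tumor RNA, fewer cells of a type and less RNA per cell cannot be told apart, and results that rest on these mice are given with and without them.

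**Figure D1:**
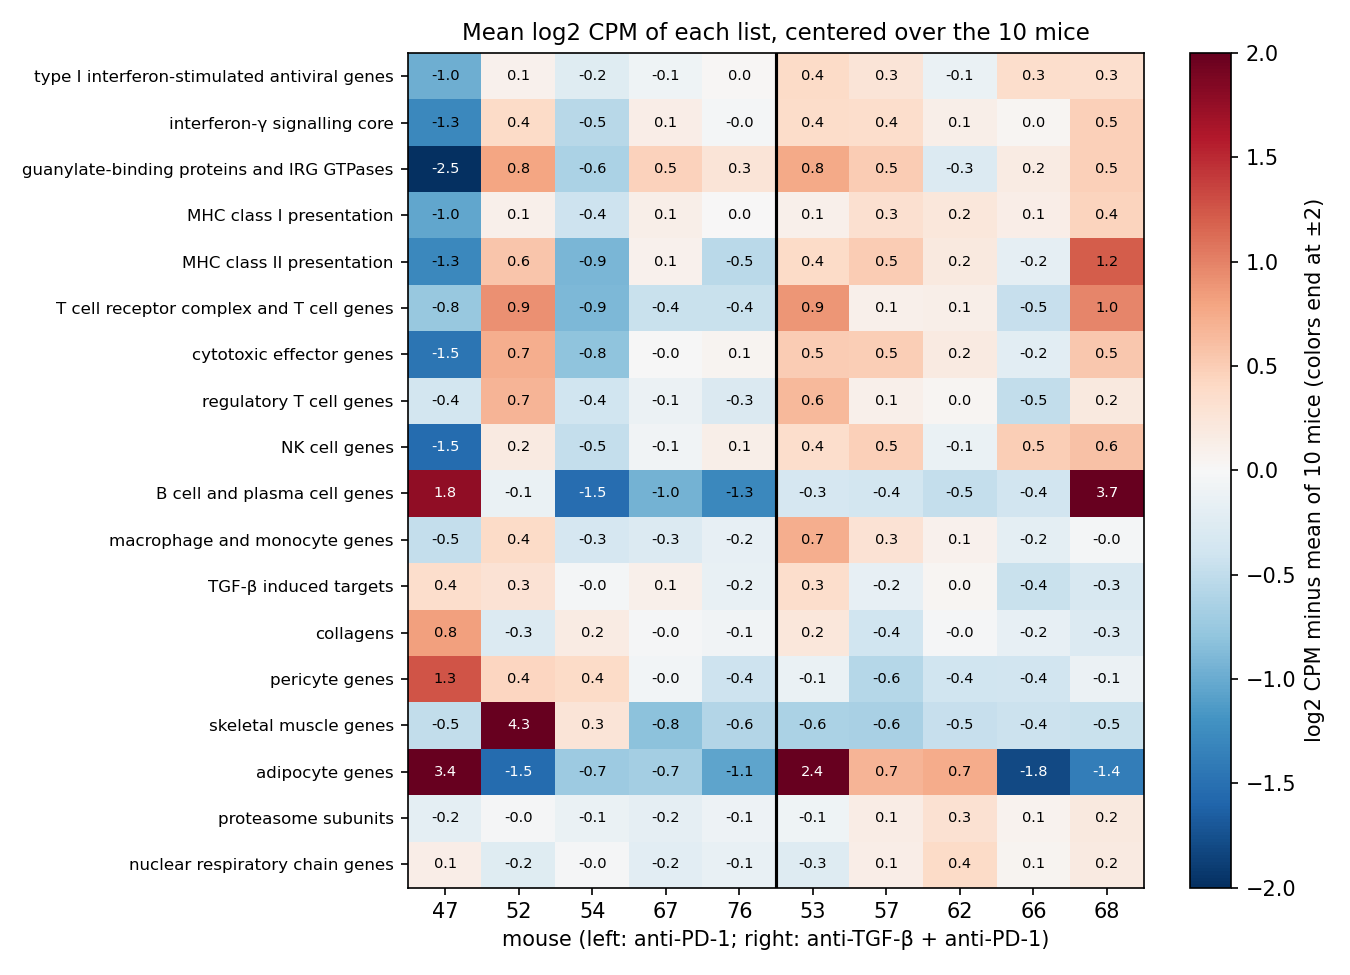
Mean log2 CPM of 18 gene lists (rows) in each of the 10 mice (columns), minus the mean of the 10 mice. Mouse 47 is lowest in type I interferon-stimulated and interferon-γ genes, mouse 52 is highest in skeletal muscle genes, and mouse 68 is highest in B cell and plasma cell genes.

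Adding anti-TGF-β to anti-PD-1 raised 1 gene past the threshold, the interferon-induced ubiquitin-like modifier Isg15 (ENSMUSG00000035692, GRCm38 chromosome 4, 156199424 to 156200818). That is 0.00678% of the genes tested, and 0 genes (0%) were lower. In the combination tumors Isg15 was at 103, 113, 115, 118 and 139 CPM (mice 53, 57, 62, 66 and 68), against 37.7, 74.4, 60.1, 67.8 and 66.4 CPM on anti-PD-1 alone (mice 47, 52, 54, 67 and 76). All 5 combination tumors lay above all 5 anti-PD-1 tumors, and mouse 47 was the lowest. Isg15 rose by 0.94 on the log2 scale (SE 0.16, adjusted p = 0.0251 in edgeR's quasi-likelihood test). The difference was 0.96 among libraries up to number 60 and 0.88 among those from 61, and without mouse 47 it was 0.81 (adjusted p = 0.161 in edgeR). As each of the 10 mice was left out in turn, the log2 fold change of Isg15 ran from 0.81 to 1.02 and its adjusted p from 0.00694 to 0.206, and the call held only without mouse 52 or mouse 53. At an unadjusted p under 0.05, 1033 genes (7%) were higher and 1488 (10.1%) lower. These counts, against which the gene lists are read, were 1764 and 2443 without mouse 53, 593 and 793 without mouse 62 and 606 and 796 without mouse 68, and between these for every other mouse left out. The shares of 7% and 10.1% are those with all mice. The 2 groups did not overlap for 108 higher genes (0.732%) and 169 lower genes (1.14%).

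The count of genes past the threshold rested on mouse 53. This mouse was singled out because leaving it out changed the count most. Adjusted p values without mouse 53, here and below, thus come from a choice made after the counts were seen. When mouse 53 was left out, 605 genes (4.05% of 14951) were higher and 1129 (7.55%) lower at an adjusted p under 0.05 in edgeR. With any other mouse left out, 0 to 2 genes were called. DESeq2's Wald test called 43 higher and 35 lower genes with all mice. limma's voom with sample weights, which gave mouse 53 a weight of 0.262, called 1613 higher and 2197 lower genes.

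Type I interferon-stimulated antiviral genes lay on the higher side with the combination. Of the 56 members tested, 54 had a positive log2 fold change and 35 had an unadjusted p under 0.05 on the higher side, against 7% of all genes, with 0 on the lower side and Isg15 alone past the adjusted threshold. The median log2 fold change was 0.48, against 0.00192 over all genes tested. The groups did not overlap for 10 members, against 0.732% of all genes, namely Isg15, Irf7, Ifi44l, Oasl1, Ifi204, Ifi27l2a, Rtp4, Xaf1, Zbp1 and Epsti1. Without mouse 53 the adjusted test called 21 members higher, against 4.05% of all genes, among them Ifi35, Oas1a, Bst2, Ifit3, Mx2 and Usp18. With any other mouse left out it called 0 or 1 members. Without mouse 47, whose summed level of type I interferon-stimulated antiviral genes was 3231 CPM against 4986 to 6447 CPM in the other anti-PD-1 tumors, the median was 0.34 and 27 members had an unadjusted p under 0.05 on the higher side. The summed level ran from 6307 to 8119 CPM in the combination tumors. Within libraries the median difference was 0.70 up to number 60 and 0.20 from 61.

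**Figure D2:**
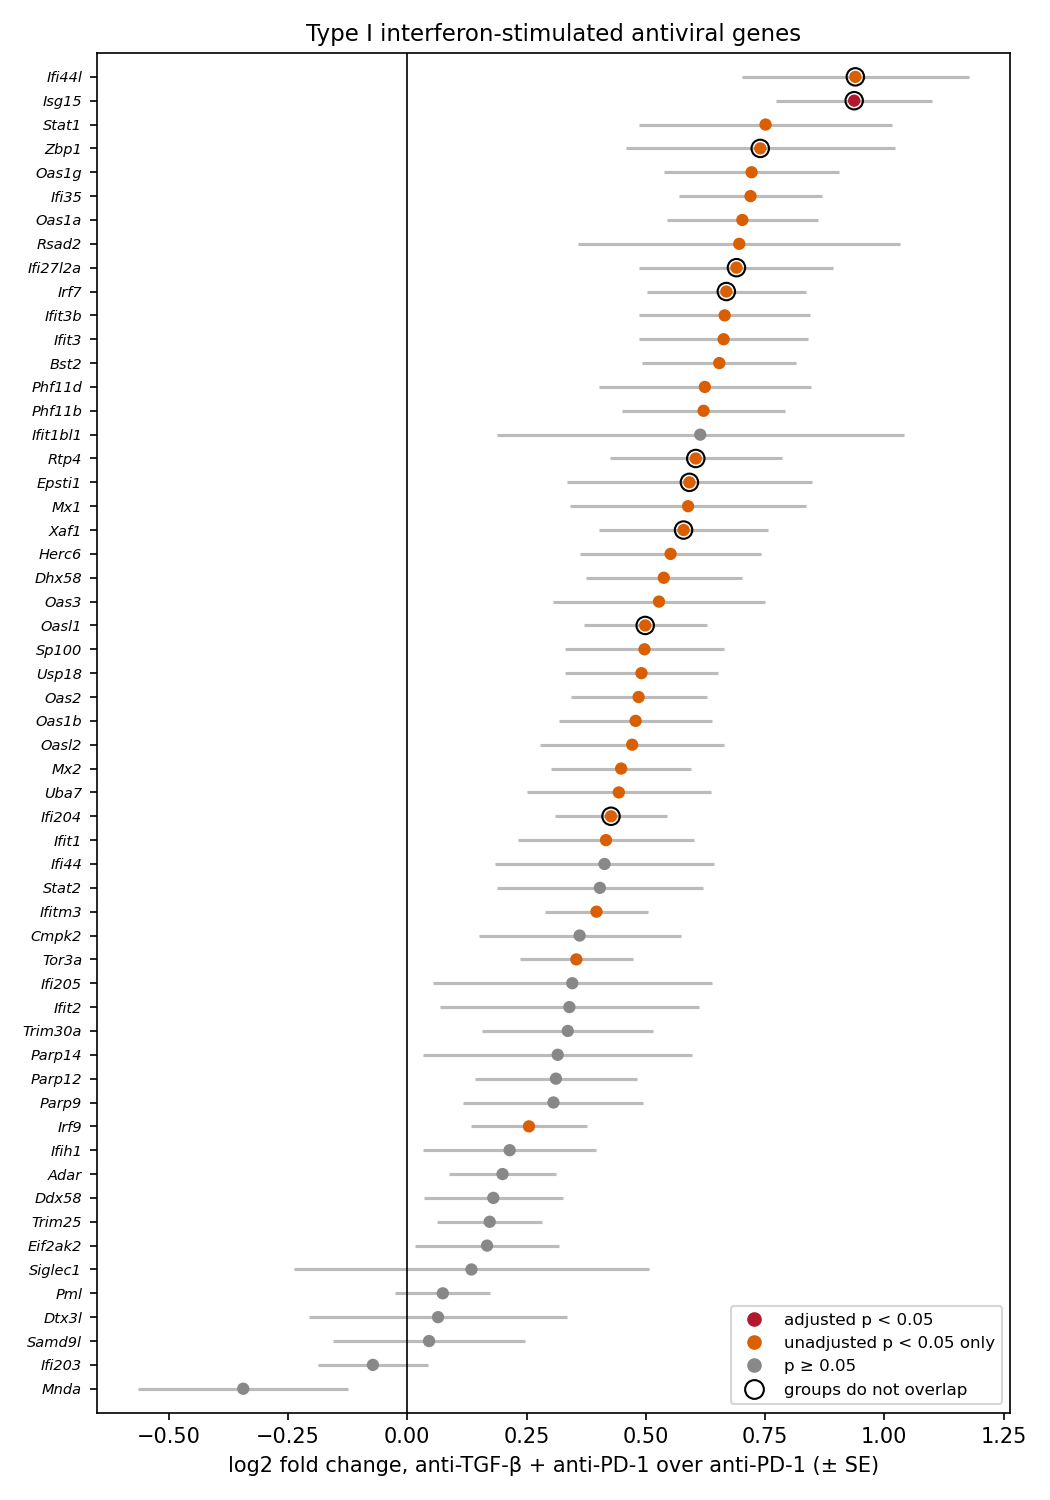
Log2 fold change (x axis, ± SE) of each of the 56 tested type I interferon-stimulated antiviral genes (y axis), combination over anti-PD-1. The members run from -0.34 (Mnda) to 0.94 (Ifi44l), and rings mark the 10 members whose groups do not overlap.

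Irf7, the transcription factor that amplifies type I interferon production, was at 334, 349, 284, 377 and 379 CPM in the combination tumors and at 125, 252, 212, 244 and 250 CPM on anti-PD-1. The groups did not overlap, with a log2 fold change of 0.67 (SE 0.17, adjusted p = 0.129 in edgeR). Ifi35 had a log2 fold change of 0.72 and Oas1a, a sensor of double-stranded RNA, one of 0.70, with adjusted p of 0.0954 and 0.125 in edgeR. The 250 bases before the starts of Isg15, Oas1a and Ifi35, the 3 members with the smallest p, are shown because an interferon-stimulated response element is the site at which this response is read. They are from RefSeq (GRCm38.p6), 5′ to 3′ on the strand of the gene, at chr4:156200819-156201068 (minus strand), chr5:120907526-120907775 (minus strand) and chr11:101448162-101448411 (plus strand). Capitals mark the letters GAAANNGAA, the core of that element, searched on both strands with overlaps kept.
Isg15: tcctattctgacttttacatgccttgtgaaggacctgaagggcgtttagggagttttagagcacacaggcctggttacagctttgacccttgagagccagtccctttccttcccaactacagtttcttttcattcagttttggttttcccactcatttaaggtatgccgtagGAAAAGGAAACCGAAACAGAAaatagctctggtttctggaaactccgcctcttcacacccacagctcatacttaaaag
Oas1a: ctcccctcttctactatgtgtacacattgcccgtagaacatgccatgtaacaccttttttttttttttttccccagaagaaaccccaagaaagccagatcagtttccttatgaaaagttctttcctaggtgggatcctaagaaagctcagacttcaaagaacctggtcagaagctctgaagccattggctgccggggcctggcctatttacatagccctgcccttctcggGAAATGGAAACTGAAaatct
Ifi35: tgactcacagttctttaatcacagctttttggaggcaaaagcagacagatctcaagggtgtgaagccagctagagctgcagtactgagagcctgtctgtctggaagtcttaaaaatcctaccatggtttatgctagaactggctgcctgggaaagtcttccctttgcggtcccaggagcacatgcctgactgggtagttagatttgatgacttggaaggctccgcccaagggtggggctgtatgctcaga
The core was found 3 times before Isg15 and 2 times before Oas1a, each time as overlapping matches in a single run, and 0 times before Ifi35. It was in 7.13% of all 32841 windows of this length. The table of promoters held only 40 of the 56 members, too few for a check over the list.

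Differences between the groups followed the length of the gene. Exon lengths from GENCODE were matched to 12761 of the 14760 genes. In the decile of shortest genes (median 1255 nt) the median log2 fold change was 0.21, with 249 genes higher and 25 lower at an unadjusted p under 0.05. In the decile of longest genes (median 12352 nt) it was -0.21, with 6 higher and 318 lower. Without mouse 53 the medians were 0.28 and -0.32. For each mouse, the level of the shortest minus that of the longest decile was taken on the log2 CPM scale, centered over the 40 mice. This contrast was 0.50, 0.86, 0.30 and 0.61 in combination mice 57, 62, 66 and 68, and -0.28 in mouse 53. In anti-PD-1 mice 47, 52, 54, 67 and 76 it was 0.30, -0.25, 0.08, -0.09 and -0.10.

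A gradient over length was therefore removed from each library in an added analysis, chosen after the data were seen. With it, 787 genes (6.17% of 12761) were higher and 942 (7.38%) lower at an unadjusted p under 0.05 in edgeR, and 0 passed the adjusted threshold. Isg15, with an exon length of 756 nt, had a log2 fold change of 0.71 (SE 0.18, adjusted p = 0.157). Without mouse 53 and with the gradient removed, 203 genes (1.57% of 12894) were higher and 341 (2.64%) lower at an adjusted p under 0.05. Of the 544 genes called there, 86.0% were also called without mouse 53 when the gradient was kept, and these were 30% of the 1560 genes with a length called in that analysis. Of the type I interferon-stimulated antiviral genes, with the gradient removed and all mice in, 38 of 55 members with a length had an unadjusted p under 0.05 on the higher side and 0 on the lower side, with a median of 0.47. Without mouse 53 as well, 28 members did so, against 1237 of the 12761 genes, and the median was 0.39. The source of the gradient was not tested.

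**Figure D3:**
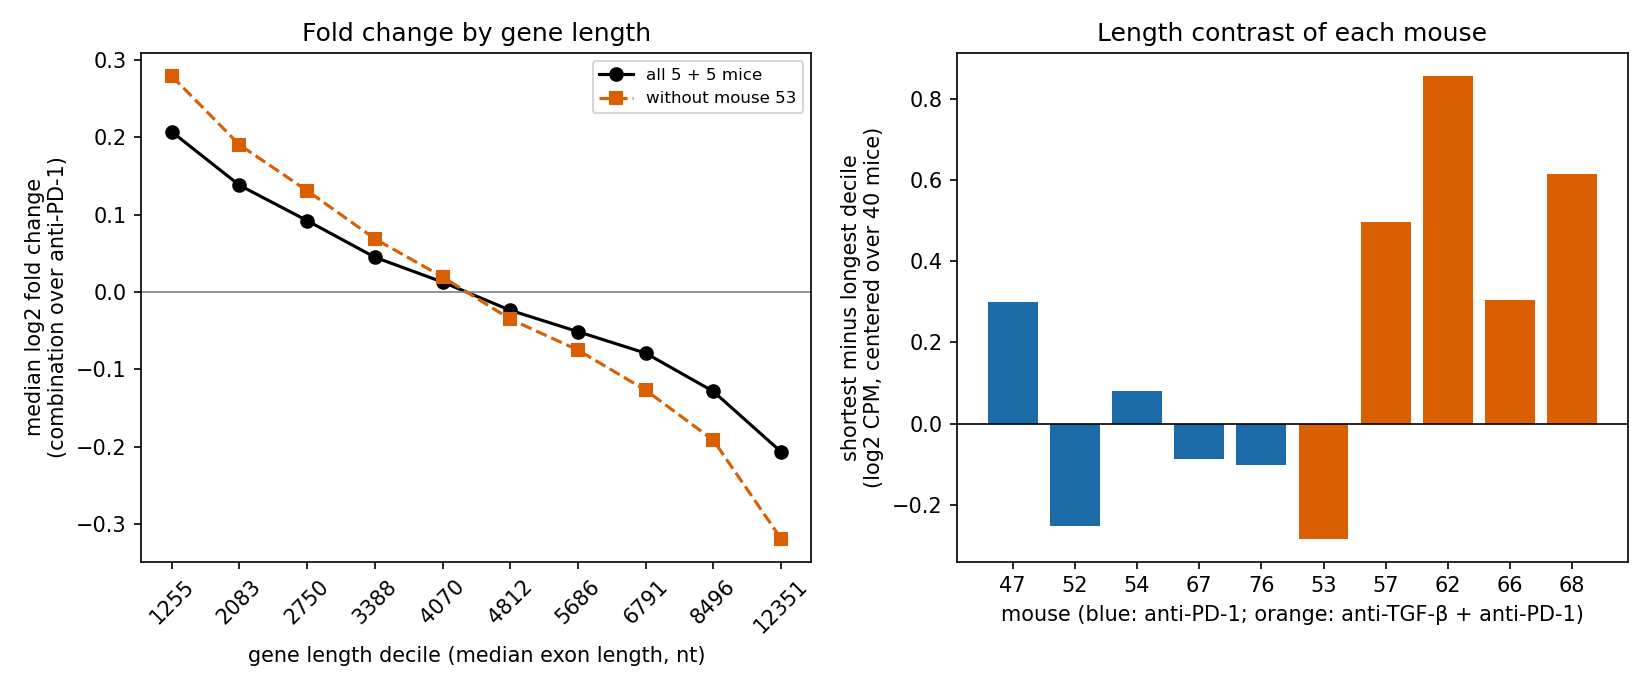
Left, median log2 fold change (y axis) by decile of exon length (x axis, median length in nt), with all mice and without mouse 53. Right, shortest minus longest decile on the log2 CPM scale in each mouse, positive in 4 of 5 combination mice and negative in mouse 53.

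Genes of MHC class I presentation were on the higher side in the combination. Of 24 members, 16 had an unadjusted p under 0.05 on the higher side and 0 on the lower side, against 7% and 10.1% of all genes, with a median log2 fold change of 0.46. With the length gradient removed 14 members had such a p on the higher side, against 6.17% of all genes, and the median was 0.36. Without mouse 47 the count was 11 and the median 0.29. The median difference of MHC class I presentation was 0.64 up to library 60 and 0.20 from 61. Psmb10, a catalytic subunit of the immunoproteasome that interferon induces, was at 208, 310, 326, 272 and 392 CPM in the combination tumors and at 82.1, 206, 136, 193 and 196 CPM on anti-PD-1. Its groups did not overlap, although mouse 53 was close to anti-PD-1 mouse 52, and the log2 fold change was 0.89 (SE 0.22, adjusted p = 0.129 in edgeR). Psme1 and Psme2, which form the proteasome activator PA28, had log2 fold changes of 0.55 and 0.70 (adjusted p = 0.138 and 0.129 in edgeR). Psma5, a structural subunit of the constitutive core particle, had one of 0.48 (adjusted p = 0.129), and 0.28 with the gradient removed. Over all proteasome subunits, 24 of 41 were higher and 1 lower at an unadjusted p under 0.05, against 7% and 10.1% of all genes, with a median of 0.21. With the gradient removed 20 were higher and 0 lower, against 6.17% and 7.38% of all genes, with a median of 0.15. The median difference of proteasome subunits was 0.07 up to library 60 and 0.34 from 61.

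MHC class II and interferon-γ genes had wide spreads. MHC class II presentation had a median log2 fold change of 0.76, and 2 of 12 members had an unadjusted p under 0.05 on the higher side, against 7% of all genes. Without mouse 52 the count was 9 and the median 1.04, and without mouse 68 the count was 0 and the median 0.54. With the length gradient removed the count was 0 with all mice and the median 0.64. Ifi30, a lysosomal thiol reductase for antigen processing, was between 89.8 and 114 CPM in the combination tumors and between 46.3 and 88.8 CPM on anti-PD-1, with a log2 fold change of 0.53 (adjusted p = 0.239 in edgeR). With the length gradient removed Ifi30 was at 0.32. Cd74, the invariant chain, overlapped widely, at 681 to 1697 CPM and 167 to 1286 CPM. Of the interferon-γ signalling core, 6 of 19 members had an unadjusted p under 0.05 on the higher side, against 7% of all genes, with a median of 0.26. This median was 0.74 without mouse 52, 0.49 without mouse 66, 0.41 without mouse 68 and 0.19 without mouse 47, and the median difference was 0.97 up to library 60 and 0.20 from 61. Its lowest p belonged to the chemokine Cxcl10, which recruits T cells and was at 104 to 195 CPM with the combination and 34.6 to 109 CPM on anti-PD-1 (log2 fold change 0.89, adjusted p = 0.136 in edgeR). The feedback inhibitor Socs1 had a log2 fold change of 0.63 (adjusted p = 0.177). Guanylate-binding proteins and IRG GTPases, which act against intracellular pathogens, had a median of 0.40 with all mice and 0.13 without mouse 47, 0.27 without mouse 54 and 0.68 without mouse 52. Their median difference was 1.49 up to library 60 and -0.14 from 61.

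**Figure D4:**
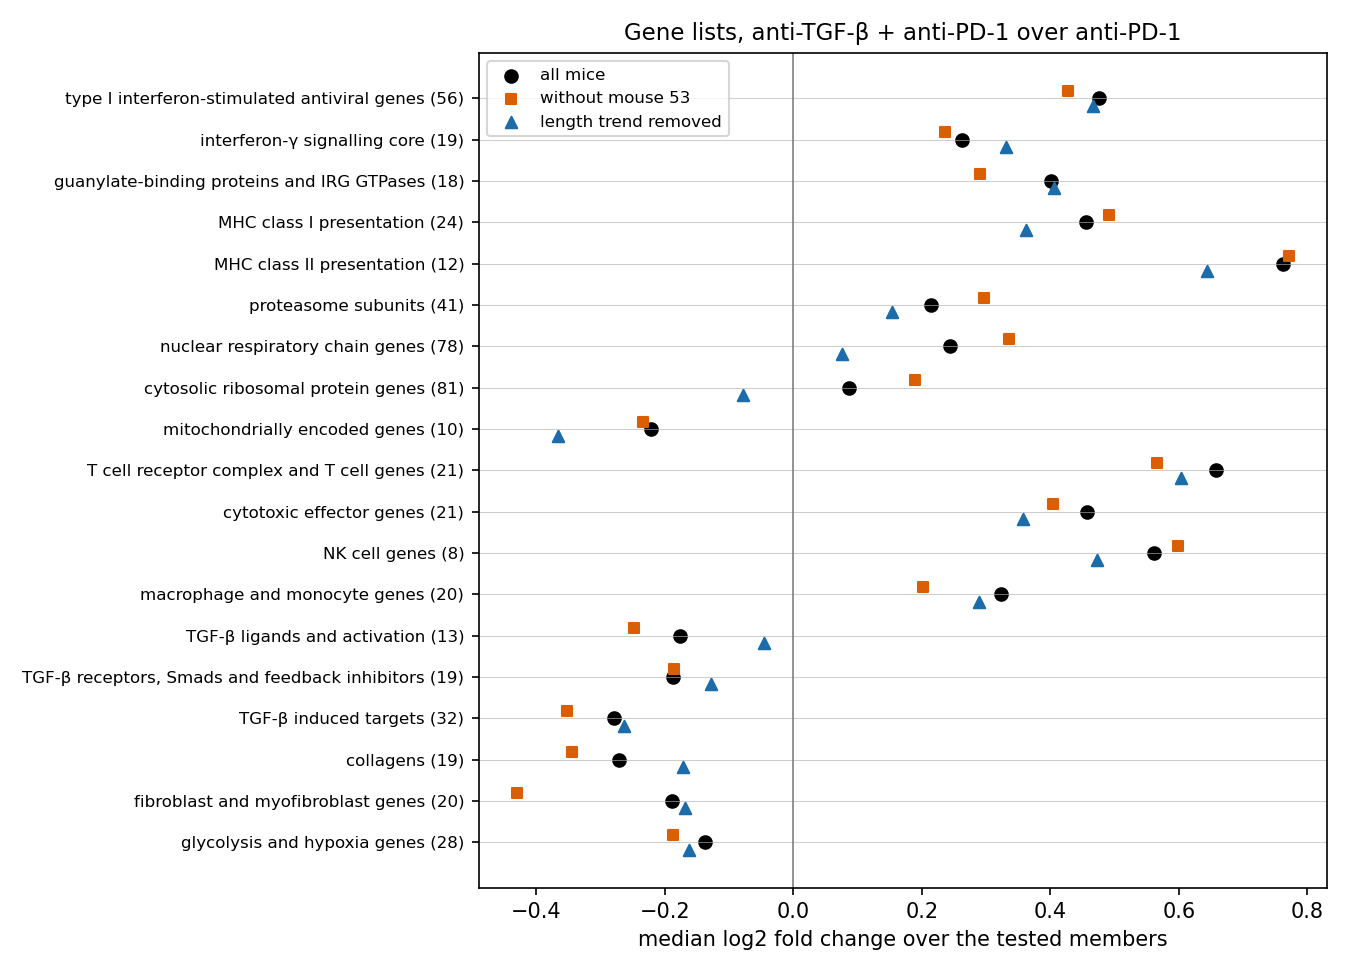
Median log2 fold change (x axis) of 19 gene lists (y axis, number of tested members in brackets) with all mice, without mouse 53 and with the length gradient removed. In these 3 settings the type I interferon list is at 0.48, 0.43 and 0.47, and the nuclear respiratory chain list at 0.24, 0.34 and 0.08.

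Cytotoxic cytokine and granule genes had overlapping groups. Ifng, which encodes interferon-γ, was at 3.26, 3.77, 2.95, 2.06 and 4.51 CPM in the combination tumors and at 0.148, 3.45, 0.285, 1.84 and 1.23 CPM on anti-PD-1. The anti-PD-1 group ran from near 0 in mice 47 and 54 to the level of the combination in mouse 52, and the log2 fold change was 1.24 (SE 0.47, adjusted p = 0.204 in edgeR). Gzma, a granule protease of NK and T cells, was at 32.1, 79.1, 74.1, 79.5 and 116 CPM with the combination and at 9.23, 25.2, 25.8, 51.1 and 57.6 CPM on anti-PD-1. Mouse 53 alone fell within the anti-PD-1 range, and the log2 fold change was 1.17 (SE 0.34, adjusted p = 0.159 in edgeR), or 1.38 without mouse 53 (adjusted p = 0.016). Gzmb and Prf1, the granzyme and the pore protein that kill target cells, had log2 fold changes of 0.62 and 0.44 (adjusted p = 0.407 and 0.568), and Tnf one of 0.46 (adjusted p = 0.489). As single mice were left out, Gzmb ran from 0.35 without mouse 47 to 1.02 without mouse 52, Prf1 from 0.20 to 0.70 and Tnf from 0.22 to 0.96 without the same mice, Prf1 was at 0.26 without mouse 54, and Ifng was at 1.91 without mouse 52.

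Of 21 cytotoxic effector genes, 2 had an unadjusted p under 0.05 on the higher side, a share near the 7% of all genes. Without mouse 52 the count was 11, against 1097 of 14939 genes. The median of the cytotoxic effector genes was 0.46 with all mice, 0.93 without mouse 52, and within libraries 1.03 up to number 60 and 0.19 from 61. T cell receptor complex and T cell genes had a median log2 fold change of 0.66 with 3 of 21 such members, and a median of 1.21 with 12 such members without mouse 52, and 0.42 with 1 such member without mouse 68. With the length gradient removed 0 of 21 members had such a p, and 1 did without any one of mice 47, 53, 54, 67 and 76 when the gradient was kept. The median difference was 0.84 up to library 60 and 0.73 from 61. Regulatory T cell genes had a median of 0.13 with all mice, and this ran from 0.02 without mouse 53 to 0.58 without mouse 52. It was 0.05, 0.07 and 0.08 without mice 54, 47 and 68, and 0.21, 0.26 and 0.27 without mice 57, 62 and 66. Cd8a was at a median of 9.29 CPM with the combination and 4.83 CPM on anti-PD-1, with overlapping ranges (log2 fold change 0.42, adjusted p = 0.775 in edgeR). Foxp3, the regulator of regulatory T cells, had a log2 fold change of 0.85 (adjusted p = 0.342), and Cd4 one of 0.64 (adjusted p = 0.45). Pdcd1, which encodes PD-1, and Cd274, which encodes its ligand PD-L1, had log2 fold changes of 0.48 and 0.25 (adjusted p = 0.725 and 0.791). These values rested on single mice: without mouse 52 Cd8a was at 1.58, Pdcd1 at 1.35 and Cd274 at 0.67, without mouse 53 they were at 0.15, 0.15 and -0.086, without mouse 54 at 0.15, 0.23 and 0.08, and without mouse 47 at 0.20, 0.29 and -0.023, while Cd4 was at 0.22 without mouse 68. Ptprc, the CD45 gene that marks all leukocytes, had a log2 fold change of 0.08 (SE 0.42). With an exon length of 18313 nt, Ptprc was at 0.35 (SE 0.35) with the length gradient removed.

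NK cell genes had 4 of 8 members at an unadjusted p under 0.05 on the higher side, against 7% of all genes. With the length gradient removed 2 of 8 had one, against 6.17% of all genes. The median difference of NK cell genes was 0.99 up to library 60 and 0.23 from 61. The NK receptor Klrb1c was between 1.66 and 2.72 CPM with the combination and between 0.517 and 1.40 CPM on anti-PD-1, without overlap (log2 fold change 0.96, adjusted p = 0.186 in edgeR). Macrophage and monocyte genes had 2 of 20 members at an unadjusted p under 0.05 on the higher side, a share near the 7% of all genes, with a median of 0.32 and a lowest member at -0.50. Without mouse 52 the count was 7 and the median 0.56, and without mouse 53 they were 2 and 0.20. Among myeloid genes, Ly6c2, a marker of inflammatory monocytes, had a log2 fold change of 0.97, the complement component C1qa one of 0.69, and the monocyte chemokine Ccl2 one of 0.56 (adjusted p = 0.167, 0.233 and 0.169 in edgeR). With the length gradient removed these were at 0.89, 0.46 and 0.35. Gsdmd, the pore-forming protein of pyroptosis, did not overlap between groups (log2 fold change 0.47, adjusted p = 0.154), and Il1b had a log2 fold change of 0.75 (adjusted p = 0.2), or 0.49 without mouse 62. Of the 17 IL-1 family and inflammasome genes, 4 had an unadjusted p under 0.05 on the higher side, against 7% of all genes, and 2 on the lower side, a share near the 10.1% of all genes. With the length gradient removed the counts were 2 and 1, against 6.17% and 7.38% of all genes. The 2 on the lower side were the receptor chains Il1r1 (-0.33) and Il1rap (-0.43, adjusted p = 0.183), and Il1rap was at -0.58 without mouse 53 (adjusted p = 0.0167). With an exon length of 11360 nt, Il1rap was at -0.26 with the length gradient removed (adjusted p = 0.286 in edgeR). Il2rg, the common γ chain of cytokine receptors, had a log2 fold change of 0.60 (adjusted p = 0.173). B cell and plasma cell genes had a median of 1.15 that rested on mouse 68, where their summed level was 710 CPM against at most 124 CPM in the other 9 mice. Without mouse 68 the median was -0.55 and 0 of 13 members had an unadjusted p under 0.05. Without mouse 47 the median was 3.63 and 8 members had one on the higher side, against 1176 of 14937 genes.

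Genes of the TGF-β pathway lay on the lower side, and 0 of them passed the adjusted threshold with all mice. Among ligands and activators, 3 of 13 had an unadjusted p under 0.05 on the lower side, against 10.1% of all genes, and 0 on the higher side, with a median log2 fold change of -0.18. The ligand genes themselves had log2 fold changes of 0.16 for Tgfb1 (SE 0.16), 0.18 for Tgfb2 (SE 0.34) and -0.15 for Tgfb3 (SE 0.17). Itgav, the αv chain of integrins that release TGF-β, was at 135, 88.6, 80.9, 92.8 and 76.1 CPM with the combination and at 114, 144, 121, 131 and 136 CPM on anti-PD-1. Apart from mouse 53 the combination tumors lay below all anti-PD-1 tumors, and the log2 fold change was -0.45 (SE 0.15, adjusted p = 0.183 in edgeR), or -0.61 without mouse 53 (adjusted p = 0.016). With an exon length of 10744 nt, Itgav was at -0.29 with the length gradient removed. Its partner chain Itgb8 had a log2 fold change of -0.88 (adjusted p = 0.275). Ltbp2, a latent TGF-β binding protein of the matrix, did not overlap between groups, at 8.12 to 13.0 CPM and 13.4 to 21.0 CPM (log2 fold change -0.62, adjusted p = 0.204).

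Receptors, Smads and feedback inhibitors had 7 of 19 members on the lower side at an unadjusted p under 0.05 against 10.1% of all genes, and 0 on the higher side, with a median of -0.19. The count was 3 without mouse 67 or mouse 68 and 4 without mouse 52 or mouse 62. Smurf2 and Smurf1, ubiquitin ligases that remove receptors and Smads, had log2 fold changes of -0.41 and -0.31 (adjusted p = 0.188 and 0.209 in edgeR). Skil, a repressor that TGF-β induces, was at 48.8, 39.7, 31.0, 44.2 and 36.1 CPM with the combination and at 47.0, 60.1, 50.0, 59.9 and 51.4 CPM on anti-PD-1. The groups overlapped only through mouse 53 and mouse 47, with a log2 fold change of -0.43 (SE 0.18, adjusted p = 0.242 in edgeR), or -0.28 with the gradient removed. Smad7, the inhibitory Smad, had a log2 fold change of -0.33 (adjusted p = 0.233), and Smad4, the common Smad, one of -0.19 (adjusted p = 0.22). With the length gradient removed, 5 of the 19 members had an unadjusted p under 0.05 on the lower side, against 7.38% of all genes, and the median was -0.13, while the ligand and activator list had a median of -0.05.

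Of 32 TGF-β induced targets, 6 had an unadjusted p under 0.05 on the lower side, against 10.1% of all genes, with a median of -0.28. With the gradient removed 6 of 30 had one, against 7.38% of all genes, with a median of -0.26. With the gradient kept, the count was 3 of 32 without mouse 52, 67 or 68. Of all genes, 1232 of 14939, 1118 of 14958 and 796 of 14937 were lower in these fits. The median of the targets was -0.14 without mouse 47. The median difference was -0.08 up to library 60 and -0.22 from 61. Fn1, the matrix protein fibronectin, was at 1576, 1042, 947, 922 and 971 CPM with the combination and at 1835, 1603, 1454, 2589.8 and 1427 CPM on anti-PD-1. Only mouse 53 reached the anti-PD-1 range, and the log2 fold change was -0.71 (SE 0.20, adjusted p = 0.146 in edgeR). It was -0.87 without mouse 53 (adjusted p = 0.013) and -0.54 with the gradient removed. The difference in Fn1 was -0.34 up to library 60 and -1.02 from 61. The myofibroblast gene Acta2 and the collagen gene Col1a1 had log2 fold changes of -0.11 (SE 0.48) and -0.20 (SE 0.34), and Col1a1 was at 0.18 without mouse 47. Col4a1 and Col4a2, basement membrane collagens, each had one of -0.34 (adjusted p = 0.282 and 0.281), or -0.20 and -0.21 without mouse 47. Fibroblast and myofibroblast genes had 0 of 20 members at an unadjusted p under 0.05. Their median was -0.19, but 0.18 without mouse 47, -0.43 without mouse 53, -0.29 without mouse 52 and -0.07 without mouse 66, and the median difference was -0.15 up to library 60 and 0.16 from 61.

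**Figure D5:**
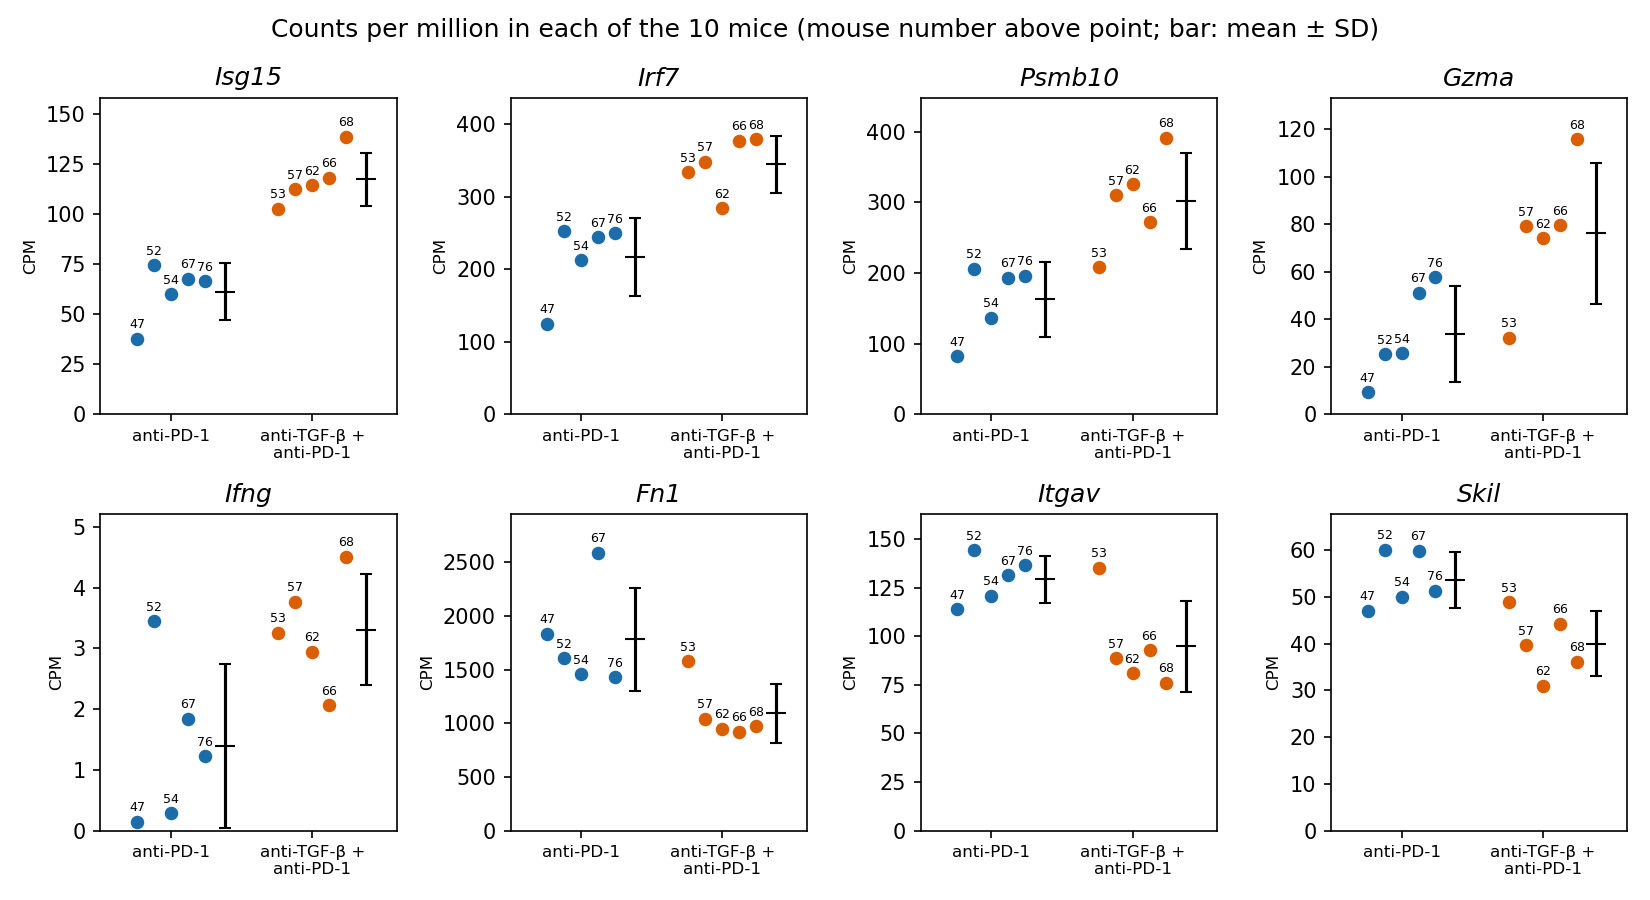
CPM (y axis, from 0) of 8 genes in each mouse of both groups, with the mouse number at each point and the mean ± SD (n = 5) as a bar. For Isg15, Irf7 and Psmb10 the groups do not overlap, and for Gzma, Fn1 and Itgav mouse 53 is the combination mouse within the anti-PD-1 range.

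Other genes were named by a rule, the smallest p among genes whose groups did not overlap. On the higher side were the interferon-induced transmembrane gene Ifitm6 (log2 fold change 1.07, 5.71 to 9.40 CPM against 3.17 to 3.75 CPM), the purine nucleoside phosphorylase Pnp (0.61), the mono-ADP-ribosyltransferase Parp10 (0.50), Shkbp1 (0.53), the histone chaperone Daxx (0.36) and Ggct of glutathione metabolism (0.55). Adjusted p ran from 0.0954 to 0.129 in edgeR for these genes. Tpm3-rs7 (0.37) and Pnp share sequence with near-identical copies and their counts are uncertain. On the lower side, the acyl-CoA synthetase Acsbg1 was at 11.9, 14.0, 11.9, 11.5 and 12.3 CPM with the combination and at 41.0, 21.9, 34.0, 28.8 and 18.5 CPM on anti-PD-1. The combination tumors were close together and below all anti-PD-1 tumors (log2 fold change -1.22, SE 0.26, adjusted p = 0.0954 in edgeR), and the value was -1.25 with the length gradient removed.

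The calpain inhibitor Cast (log2 fold change -0.35, exon length 11470 nt) and Dcaf10 (-0.25, 7305 nt) also lay on the lower side without overlap, with -0.17 and -0.13 after the gradient was removed. Slc25a30, a mitochondrial carrier, had a log2 fold change of -0.39 and the RNA-binding protein Scaf8 one of -0.38. Tmem57, Enox1, Shc4 and the pseudogene Pgam1-ps2 had log2 fold changes of -0.29, -1.08, -0.78 and -1.03. The muscle genes Tnnt2 (-1.52) and Ldb3 (-1.56) were in this set as well, with Ldb3 at -0.99 without mouse 52. Skeletal muscle genes had 7 of 8 tested members at an unadjusted p under 0.05 on the lower side, against 10.1% of all genes, and their summed level was 187 CPM in anti-PD-1 mouse 52, against 5.16 to 10.3 CPM in the other 9 mice. Without mouse 52 the median moved from -2.43 to -0.08 and 0 members had an unadjusted p under 0.05. The α-actin Acta1 was at 63.3 CPM in that mouse and at 0 in mice 53 and 67. Pericyte genes had a median of -0.97, of -0.58 without mouse 52 and of -0.47 without mouse 47, the anti-PD-1 tumor in which Kcnj8 was at 12.0 CPM against 1.74 to 4.28 CPM elsewhere.

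Nuclear respiratory chain genes had a median log2 fold change of 0.24, with 35 of 78 members on the higher side at an unadjusted p under 0.05, against 7% of all genes. The count was 57 without mouse 53, 6 without mouse 62, 15 without mouse 52 or 67, 16 without mouse 68 and 21 without mouse 76. The median difference was -0.01 up to library 60 and 0.42 from 61. These genes are short, with a median exon length of 1631 nt, and with the gradient removed the median was 0.08 and 13 of 76 members had such a p on the higher side, against 6.17% of all genes. Uqcrc1, a core subunit of complex III with an exon length of 4135 nt, had a log2 fold change of 0.28 (SE 0.08, adjusted p = 0.159 in edgeR) and kept 0.28 with the gradient removed, and Ndufv2, a complex I subunit, had 0.36 and 0.23. Cytosolic ribosomal protein genes had medians of 0.09 and -0.08 in these analyses, and a median difference of -0.15 up to library 60 and 0.23 from 61. Mitochondrially encoded genes had a median of -0.22, with 1 of 10 members at an unadjusted p under 0.05 on the lower side, a share near the 10.1% of all genes. With the gradient removed the median was -0.37 with 2 such members, against 7.38% of all genes, and -0.50 with 6 when mouse 53 was also left out, against 1506 of the 12761 genes, while with the gradient kept it was -0.11 without mouse 68. In this list mt-Co1 was at 4675 to 10348 CPM against 8121 to 11531 CPM. Of the hypoxia-induced genes, the demethylase Kdm3a (log2 fold change -0.47, adjusted p = 0.154 in edgeR), the kinase Pdk1 (-0.41) and Vegfa (-0.34) were the 3 of 28 glycolysis and hypoxia genes with an unadjusted p under 0.05, all on the lower side, a share near the 10.1% of all genes. The cell cycle gene Birc5 had a log2 fold change of 0.41 (adjusted p = 0.199).

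Whether the effect of anti-TGF-β differed with and without anti-PD-1 was tested as an interaction, the difference above minus that of anti-TGF-β alone over the isotype control. In edgeR 0 genes (0%) were higher and 0 (0%) lower at an adjusted p under 0.05, while 111 (0.752%) were higher and 229 (1.55%) lower at an unadjusted p under 0.05. The unadjusted counts were 557 and 1206 without mouse 53 and 46 and 143 without isotype mouse 63, the highest and lowest counts of higher genes as single mice were left out. DESeq2 called 2 genes and limma 1. Isg15 was at 65.2 ± 11.4 CPM (SD, n = 5) in the isotype group and 83.3 ± 21.7 CPM on anti-TGF-β alone, a log2 fold change of 0.35, and the interaction was 0.58 (SE 0.23, adjusted p = 0.959). The interferon list had a median of 0.23 without anti-PD-1 and 0.48 with it, and MHC class I presentation 0.03 and 0.46. Of the 24 MHC class I members, 7 were above 0 in the interaction at an unadjusted p under 0.05, against 0.752% of all genes. The TGF-β induced targets had a median of 0.06 without anti-PD-1. In the interaction 2 of 32 were on the lower side at an unadjusted p under 0.05, against 1.55% of all genes. By the same rule of smallest p, Tpm3-rs7, Dis3l2 and Mrpl55 were named above 0 (0.32, 0.35 and 0.46) and Enox1, Acta1 and Myl1 below (-1.97, -8.18 and -9.29), with Acta1 and Myl1 high in mouse 52.

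The anti-TGF-β combination was also set against the anti-GARP:TGF-β1 combinations, which block TGF-β1 from GARP-expressing cells only. Against the WT combination 1248 genes (8.46%) were higher and 1436 (9.73%) lower at an adjusted p under 0.05 in edgeR, and against the FcD combination 557 (3.77%) and 397 (2.69%). The first count, 2684 genes in all, was 5309 without mouse 53, 1422 without mouse 66, 213 without mouse 57 and 0 without mouse 62 or 68, and it was 1187, 0 and 1686 without mice 64, 69 and 77 of the WT combination. The second, 954 genes in all, was 4612 without mouse 53, 4256 without mouse 50 of the FcD combination, and 0 without any one of the other 8 mice. A fit of only the compared groups called 0 genes in both comparisons, with 1553 and 1785 genes higher and 1800 and 1738 lower at an unadjusted p under 0.05. With the length gradient removed, 455 genes were called higher and 307 lower against the WT combination, and 0 and 0 against FcD. The median contrast of shortest minus longest decile was 0.50 in the anti-TGF-β combination, -0.32 in the WT and -0.35 in the FcD combination. Isg15 was higher than in both, by 0.50 (adjusted p = 0.0341) and 0.64 (adjusted p = 0.0447). The type I interferon list had medians of 0.04 and 0.14. Against WT 6 of its 56 members were called higher, a share near the 8.46% of all genes, and 1 lower, against 9.73%. Against FcD 5 members were called higher and 0 lower, against 3.77% and 2.69% of all genes. Skil was lower than with WT (-0.61, adjusted p = 0.027) and Fn1 likewise (-0.63, adjusted p = 0.0317). Skil (9694 nt) and Fn1 (11685 nt) are long and Isg15 (756 nt) is short, so these differences lie in the direction of the length contrast. Their fold changes with the gradient removed were not taken in these comparisons. None of them was called against WT without mouse 62, 68 or 69, nor was Isg15 against FcD with the gradient removed. Isca1, Dhrs7b and Srsf9 led the higher genes against WT (0.45, 0.54 and 0.43) and Eif2ak4, Golgb1 and Ralgapa2 the lower (-0.54, -0.51 and -0.59). Against FcD, Dph3, Thap7 and Tceal9 led the higher genes (0.36, 0.45 and 0.36) and Clcf1 was among the leading lower genes (-0.88).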

How the data were processed

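The authors aligned reads of stranded mRNA libraries (TruSeq) to GRCm38 with STAR 2.5.3a, handled alignments with SAMtools 1.6 and counted reads per gene with HTSeq 0.9.1, per the labels. They deposited raw counts of 54087 genes, without normalization, and the number of per-sample columns that went unused was 0. Groups were taken from the treatment labels. Replicates are separate mice, and the samples of a group differed by more than sampling noise (chi-square per degree of freedom at least 7.65).

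Counts were filtered with filterByExpr, scaled by TMM and tested with edgeR 4.0.16 (robust quasi-likelihood, R 4.3.3) in a model of all 40 mice. Each SE was derived from the fold change and its F statistic. Log2 CPM used a prior count of 2. Gene lists (42 in all) were described by counts and medians without a test. Genes were named by rule: all called genes, the 12 smallest p per direction without overlap of groups, 3 per list by p, a list of pathway genes, and 3 per direction in the other contrasts. Clone and gene-model names, Xist and Y-linked genes were left out of the second part, and a few genes that the rule names are not reported here. The members and lists were chosen with earlier results of these data known.

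Alternatives were DESeq2 1.42.0 size factors and Wald test, limma 3.58.1 voom with sample weights, no filter on low counts, only the compared groups, the library part (up to 60, from 61) as a covariate, and each mouse left out. Added after seeing the data was a lowess trend (span 0.3) of each library over exon length (GENCODE, GRCm38), with or without GC content, removed as an offset. Scripts were tested on simulated data. Promoter windows are from RefSeq.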

Additional observations from a re-analysis of the deposited data

Results flagged for a closer look

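Within each group of 5 mice, each named gene and each gene list was checked for a mouse whose gap to its nearest neighbour takes a share of the whole range above Dixon's critical value of 0.71. Of 300 checks, 33 (11%) passed, where chance gives about 1 in 20 groups. Shares are given in brackets for 32 of them, on the log2 CPM scale.

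Anti-PD-1 mouse 47 was the lowest of its group for Irf7 (0.755), Ifi44l (0.780), Parp10 (0.753), Cxcl10 (0.751) and Klrb1c (0.812), and the highest for Col1a1 (0.833), Uqcrc1 (0.778), endothelial and vessel genes (0.771) and adipocyte genes (0.828). Anti-PD-1 mouse 52 was the highest for Ldb3 (0.863), Cd4 (0.764), Mylpf (0.940), T cell receptor complex and T cell genes (0.749), regulatory T cell genes (0.748), mast cell genes (0.712), skeletal muscle genes (0.786) and keratinocyte genes (0.718). Mouse 67 was the lowest for Tpm3-rs7 (0.825).

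Among combination tumors, mouse 53 was the highest for Fn1 (0.771), Il1rap (0.725), Myl1 (1), Kdm3a (0.719) and TGF-beta ligands and activation (0.777) and the lowest for Acta1 (0.852). Mouse 68 was the highest for Ifi30 (0.829), Jchain (0.772), Igkc (0.903) and B cell and plasma cell genes (0.965) and the lowest for Tgfb2 (0.713). Mouse 62 was the highest for Dcaf10 (0.737) and the lowest for the type I interferon-stimulated antiviral genes (0.742), and mouse 57 was the lowest for Mylpf (0.830). The interaction with anti-PD-1 passed the adjusted threshold for none of the named genes in edgeR's test.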

How the results depend on the processing

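No paired analysis was possible because the labels give each mouse its own library number and no replicate number that groups share. The count of 1 gene called against anti-PD-1 was 78 in DESeq2's Wald test, 3810 in limma with sample weights, 0 in a fit of only the compared groups, 0 with the length trend or the length and GC trends removed, and 544 with the length trend removed without mouse 53. As single mice were left out it ran from 0 to 1734 (1734 without mouse 53, 2 without mouse 52, otherwise 0). The interaction called 2 genes in DESeq2, 1 in limma and 0 to 1 as single mice were left out (1 without mouse 53 or isotype mouse 63). Against the WT combination, 2684 became 848 without a filter, 5982 in limma, 0 with only the compared groups, 762 and 954 with the length and the length and GC trends removed, and 0 to 5309 as mice were left out. Against the FcD combination, 954 became 0 without a filter, 2236 in DESeq2, 7678 in limma, 0 with only the compared groups, 0 with either trend removed, 2260 with the length trend removed without mouse 53, and 0 to 4612 as mice were left out.

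Directions turned for a few named genes, none past the threshold against anti-PD-1 with all mice. The log2 fold change of Ifnar1 was 0.0081 and 0.0021 with the length and the length and GC trends removed. With the length trend removed and without mouse 53, Ifnar1 was 0.00065, Pdcd1 -0.10, Cd274 -0.15 and Tceal9 -0.026. As single mice were left out, Tgfb2 ran from -0.014 to 0.39, Col1a1 from -0.38 to 0.18, Acta2 from -0.23 to 0.14, Cd274 from -0.086 to 0.67, Ptprc from -0.15 to 0.49, Jchain from -0.17 to 4.16, Igkc from -0.50 to 4.51 and Mzb1 from -0.65 to 3.97. The causes were not tested. Of the other values for named genes, 1821 kept direction and side of the threshold, 196 kept direction and passed it, and 11, all of Isg15, kept direction and no longer passed it. Of list medians, 786 moved by less than their spread and 12 by more.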
